A study of Mus musculus with 4 samples.

Results

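Lyve1, Folr2, Cd163, F13a1, Cbr2, Mrc1, Pf4, Retnla and Vsig4 mark resident macrophages or macrophages in an alternative activation state. These 9 genes were listed by symbol, and all 9 were found among the 32285 features of 4 single-cell RNA libraries from mouse aorta. A normal diet was fed to WT and to LysM-DKO mice, and a western diet to WT/ApoE-/- and to LysM-DKO/ApoE-/- mice, with 1 library for each of these groups, and the values of the 4 libraries are given in that order throughout. Both western diet groups share the loss of ApoE, which normal diet groups do not carry by their labels. The aortas were digested with collagenases and liberase, and the labels give neither the age nor the number of mice behind a library. LysM-DKO is not spelled out in the labels. LysM is the usual name of the Lyz2 promoter that drives Cre in myeloid cells, macrophages among them but also neutrophils, and the title of the series names epsins, which are adaptors of clathrin-mediated endocytosis.

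Resident macrophages of the artery wall are seeded in part before birth and sit mainly in the outer coat of the vessel, where they take up debris and keep contact with matrix and smooth muscle. LYVE1 binds hyaluronan, FOLR2 binds folate, CD163 takes up hemoglobin bound to haptoglobin, and MRC1 (CD206) takes up mannosylated glycoproteins. In atherosclerosis a different macrophage state appears, which holds lipid and expresses Gpnmb, Trem2 and other genes of lipid handling. Retnla is a textbook target of interleukin 4 signalling through STAT6, and the term alternative activation comes from that response.

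Barcodes with at least 1000 unique molecular identifiers (UMIs, counted molecules) and at most 10% mitochondrial UMIs were kept. A kept barcode with at least 5 UMIs over C1qa, C1qb and C1qc was called a macrophage. Macrophages with at least 2 UMIs over Gpnmb, Trem2 and Mmp12 are called foam-high below and the others foam-low. These names are ranges of a count and not cell types. The kept barcodes held medians of 4167, 3404, 2103 and 6761 UMIs. Foam-low macrophages numbered 79, 173, 436 and 69 barcodes, and foam-high macrophages 13, 35, 503 and 66. Of the foam-low barcodes, 15, 30, 181 and 20 lay 1 UMI below the split. All 10 macrophage markers were highest in the macrophage classes in each library, and the endothelial, fibroblast and smooth muscle classes led for at least 6 of 7, 4 of 6 and 5 of 5 of their own markers.

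Several facts of the libraries touch every value below. The WT/ApoE-/- western diet library stood apart, with 14176 of its 29724 barcodes under 1000 UMIs. Many macrophage barcodes also reached the cut of another class, 50, 108, 242 and 26 of the foam-low ones, and smooth muscle markers summed to 5671, 5544, 15552 and 7916 CPM (UMIs scaled to a total of 1000000 per class) in foam-low macrophages. Between 170 and 321 barcodes of a library, and 53 to 98 of the kept ones, also occurred in another library. Xist, at 950 and 950 CPM in the kept barcodes on normal diet against 0.636 and 0.563 CPM on western diet, and the Y-linked Ddx3y, at 0 and 0 against 117 and 124 CPM, showed that the diets also differ in the sex of the cells. In macrophages Lyz2 stood at 3696, 977, 4126 and 798 CPM. The epsin genes gave 81.7 (58.1 to 112), 54.5 (41.6 to 70.2), 52.4 (45.5 to 60.1) and 42.7 (28.8 to 61) CPM for Epn1 and 35.6 (20.7 to 57), 33.6 (23.7 to 46.3), 33.2 (27.8 to 39.5) and 15.7 (7.82 to 28) CPM for Epn2 in macrophages, and a 3′ count does not measure deletion of an exon upstream. Brackets hold 95% intervals of the counting error only. With 1 library per group there is no replicate and no test between groups.

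Upstream sequence was available for 8 of the 9 genes, and 4 stretches are shown because the levels of these genes vary together below while their upstream letters differ. Each runs 5′ to 3′ on the strand of the gene and ends at the base before the annotated gene start, except that of Cd163, which ends a few bases further upstream. Capitals mark matches on either strand to GAGGAA (the core of the site of PU.1, a myeloid factor), TGCTGA (the core of the element recognised by MAF, a factor of resident macrophages) or the palindrome bound by STAT6 (TTC and GAA with 4 bases of any kind between them). The stretches are Retnla chr16:48842359-48842550 (plus strand), Mrc1 chr2:14229164-14229391 (plus), Pf4 chr5:90772185-90772434 (plus) and Cd163 chr6:124304401-124304650 (plus), from RefSeq on GRCm38.p6.
Retnla: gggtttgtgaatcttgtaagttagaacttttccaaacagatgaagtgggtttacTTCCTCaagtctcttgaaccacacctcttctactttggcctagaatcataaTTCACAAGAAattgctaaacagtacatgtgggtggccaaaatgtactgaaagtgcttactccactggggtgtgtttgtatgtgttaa
Mrc1: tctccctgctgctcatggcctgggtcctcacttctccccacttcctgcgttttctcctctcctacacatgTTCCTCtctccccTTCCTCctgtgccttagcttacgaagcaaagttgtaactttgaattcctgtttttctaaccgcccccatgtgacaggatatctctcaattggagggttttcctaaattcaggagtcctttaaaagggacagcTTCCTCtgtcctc
Pf4: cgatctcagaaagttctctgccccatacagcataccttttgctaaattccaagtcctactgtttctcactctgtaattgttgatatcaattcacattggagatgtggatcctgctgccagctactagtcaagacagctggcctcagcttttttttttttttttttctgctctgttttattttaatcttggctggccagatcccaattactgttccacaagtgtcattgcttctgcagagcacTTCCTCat
Cd163: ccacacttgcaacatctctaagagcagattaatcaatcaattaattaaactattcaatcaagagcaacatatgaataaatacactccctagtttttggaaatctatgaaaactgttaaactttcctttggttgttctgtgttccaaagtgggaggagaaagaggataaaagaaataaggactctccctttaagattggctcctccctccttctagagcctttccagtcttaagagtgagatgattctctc
Retnla held a GAGGAA match, written as its complement TTCCTC, and the 1 STAT6 match among the 8 genes. Mrc1 held 3 GAGGAA matches and Pf4 held 1, while no letters of the 3 motifs occurred in the Cd163 stretch. Over windows of 250 bases upstream, of which the 8 genes have 10, GAGGAA occurred in 6 of 10 against 23.3% of all 32851 windows, TGCTGA in 3 of 10 (both of Folr2 and that of Retnla, outside the stretch shown) against 16.1%, and the STAT6 palindrome in 1 of 10 against 5.85%. No matches overlapped one another in these stretches. A match is a run of letters and shows no binding.

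Lyve1 (ENSMUSG00000030787, chr7:110850607-110863239, minus strand, GRCm38, protein coding as are all 9) encodes the hyaluronan receptor shared by resident macrophages and lymphatic endothelium. In foam-low macrophages it stood at 315 (260 to 378), 180 (152 to 211), 56.4 (44.5 to 70.5) and 658 (559 to 770) CPM. It was highest in LysM-DKO/ApoE-/- on western diet and lowest in WT/ApoE-/- on western diet, and the 4 intervals did not overlap. Foam-high macrophages had 98.1, 187, 25.5 and 90.7 CPM, with 21 of 65 UMIs in WT/ApoE-/- and 22 of 42 in LysM-DKO/ApoE-/- from 1 barcode each. Smooth muscle barcodes held 14.8, 15.1, 11 and 16.5 CPM. A Lyve1 UMI was seen in 41.8, 31.8, 6.42 and 65.2% of foam-low barcodes at median depths of 4400, 4448, 1926 and 3077 UMIs. After each barcode was thinned to 1000 UMIs the shares were 22.8, 19.1, 2.98 and 44.9%, against 1.47, 1.44, 0.992 and 1.59% of smooth muscle barcodes thinned alike, so the order of the libraries was the same.

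Folr2 (ENSMUSG00000032725, chr7:101839988-101857194, minus strand) encodes folate receptor beta and overlaps an antisense gene and a pseudogene on the other strand. In foam-low macrophages it reached 263 (213 to 321), 229 (198 to 265), 49.1 (38 to 62.3) and 340 (270 to 422) CPM. WT/ApoE-/- on western diet was again lowest, and the intervals of both normal diet libraries overlapped. In foam-high macrophages the levels were 62.4, 98.9, 168 (152 to 184) and 54 CPM, so that WT/ApoE-/- was there the highest of the 4 libraries. Smooth muscle held 0.185 to 1.63 CPM.

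Cd163 (ENSMUSG00000008845, chr6:124304656-124330527, plus strand), the scavenger receptor for hemoglobin and haptoglobin, had foam-low levels of 534 (461 to 614), 324 (286 to 365), 48.3 (37.4 to 61.5) and 633 (536 to 743) CPM. The intervals of WT on normal diet and LysM-DKO/ApoE-/- on western diet overlapped, and the WT/ApoE-/- value lay apart below all others. Foam-high levels were 143, 165, 9.82 and 51.8 CPM, and smooth muscle was at 0.166 to 0.532 CPM. Thinned to 1000 UMIs, 34.2, 25.4, 2.75 and 39.1% of foam-low barcodes held a Cd163 UMI, against 68.4, 41.6, 5.96 and 59.4% at full depth.

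Mrc1 (ENSMUSG00000026712, chr2:14229392-14332057, plus strand, with the microRNA gene Mir511 inside it on the same strand) encodes the mannose receptor. It gave 1191 (1081 to 1308), 1106 (1036 to 1180), 482 (446 to 520) and 1870 (1700 to 2052) CPM in foam-low macrophages. The intervals of the normal diet libraries overlapped, WT/ApoE-/- lay below them and LysM-DKO/ApoE-/- above. In foam-high macrophages Mrc1 was at 749, 770, 130 and 177 CPM, lower in both western diet libraries than on normal diet. A UMI was found in 88.6, 78, 23.6 and 87% of foam-low barcodes, and in 65.8, 56.1, 16.7 and 75.4% after thinning.

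F13a1 (ENSMUSG00000039109, chr13:36867178-37050244, minus strand) encodes the A subunit of the clotting transglutaminase factor XIII and overlaps 2 antisense genes on the other strand, whose own counts were not examined here. In foam-low macrophages F13a1 was at 879 (785 to 980), 748 (690 to 809), 150 (130 to 172) and 1023 (899 to 1160) CPM. The order was that of Cd163, with the WT/ApoE-/- value lowest and apart. Foam-high macrophages held 383, 330, 48.7 and 71.2 CPM and smooth muscle 7.27, 11.2, 8.88 and 4.8 CPM.

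Pf4 (ENSMUSG00000029373, chr5:90772435-90773383, plus strand), a chemokine best known from platelets, was at 1697 (1566 to 1836), 955 (890 to 1024), 241 (216 to 269) and 1266 (1127 to 1417) CPM in foam-low macrophages. No 2 of these intervals overlapped, with WT on normal diet highest. Foam-high macrophages had 767, 711, 74.6 and 216 CPM. Platelet RNA can bring Pf4 into a barcode, so other platelet transcripts were read in the same barcodes. In macrophages with at least 2 Pf4 UMIs (75, 127, 76 and 60 barcodes) the 8 platelet markers summed to 7.61, 3.15, 0 and 14.8 CPM, and Gp9 was at 0 in all 4 libraries. Outside the macrophage classes the picture was different, since 17 such barcodes in WT on normal diet held platelet markers at 4502 CPM against 3.57 CPM where Pf4 was at 0, with Ppbp at 2321 against 0.126 CPM.

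Retnla (ENSMUSG00000061100, chr16:48842551-48844461, plus strand) encodes the secreted protein RELM alpha, and reads shared with its paralogs Retnlg and Retnlb could not be separated here. Foam-low macrophages held 1081 (977 to 1193), 495 (448 to 546), 41.8 (31.6 to 54.1) and 780 (672 to 900) CPM. Few barcodes carried them, 17 of 79, 28 of 173, 3 of 436 and 10 of 69, and the 3 barcodes with the most UMIs held 55.4, 32.4, 100 and 72% of the class total. Counting intervals treat UMIs as independent, so they understate the uncertainty most for Retnla. In foam-high macrophages Retnla was seen with 0 UMIs in WT on normal diet and at 180, 3.14 and 34.5 CPM in the other libraries, the last 2 from 1 barcode each. One unassigned barcode of LysM-DKO/ApoE-/- held 302 Retnla UMIs, with Lyz2 and C1qa at 0.

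Cbr2 (ENSMUSG00000025150, chr11:120729489-120732114, minus strand) encodes a carbonyl reductase. It gave 203 (159 to 254), 263 (230 to 301), 119 (101 to 138) and 273 (210 to 347) CPM in foam-low macrophages, beside 153, 130, 189 and 196 CPM in smooth muscle barcodes. Foam-low macrophages were therefore below smooth muscle in WT/ApoE-/- and above it in the other 3 libraries. The smooth muscle class held 60, 48.1, 66.9 and 87.2% of all Cbr2 UMIs of the libraries, against 1.07, 3.59, 1.64 and 0.598% in foam-low macrophages. In the foam-low barcodes with no Myh11 or Cnn1 UMI, Cbr2 was at 0 in WT on normal diet (4 barcodes) and at 242 (121 to 432), 89.5 (53 to 141) and 381 (190 to 682) CPM in the others (13, 63 and 11 barcodes). The smooth muscle marker Acta2 was still at 1725, 1494, 999 and 832 CPM in these barcodes, so they were not free of smooth muscle RNA. By its levels Cbr2 was therefore not a gene of macrophages alone, and the part of smooth muscle RNA in its macrophage values was not tested.

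Vsig4 (ENSMUSG00000044206, chrX:96247203-96293438, minus strand) encodes a complement receptor of the immunoglobulin family, typical of liver macrophages. It was the member with the fewest UMIs, 60, 12, 5 and 0 in foam-low macrophages, or 164 (125 to 211), 14.5 (7.49 to 25.3), 3.66 (1.19 to 8.55) and 0 (0 to 15.5) CPM. In WT on normal diet 9 of 79 barcodes carried it, and the 18 UMIs of the foam-high class were all in 1 barcode. The 9 macrophages of that library with at least 2 Vsig4 UMIs held Timd4, a phosphatidylserine receptor of long-lived resident macrophages, at 241 CPM against 35.6 CPM where Vsig4 was at 0.

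**Figure D1:**
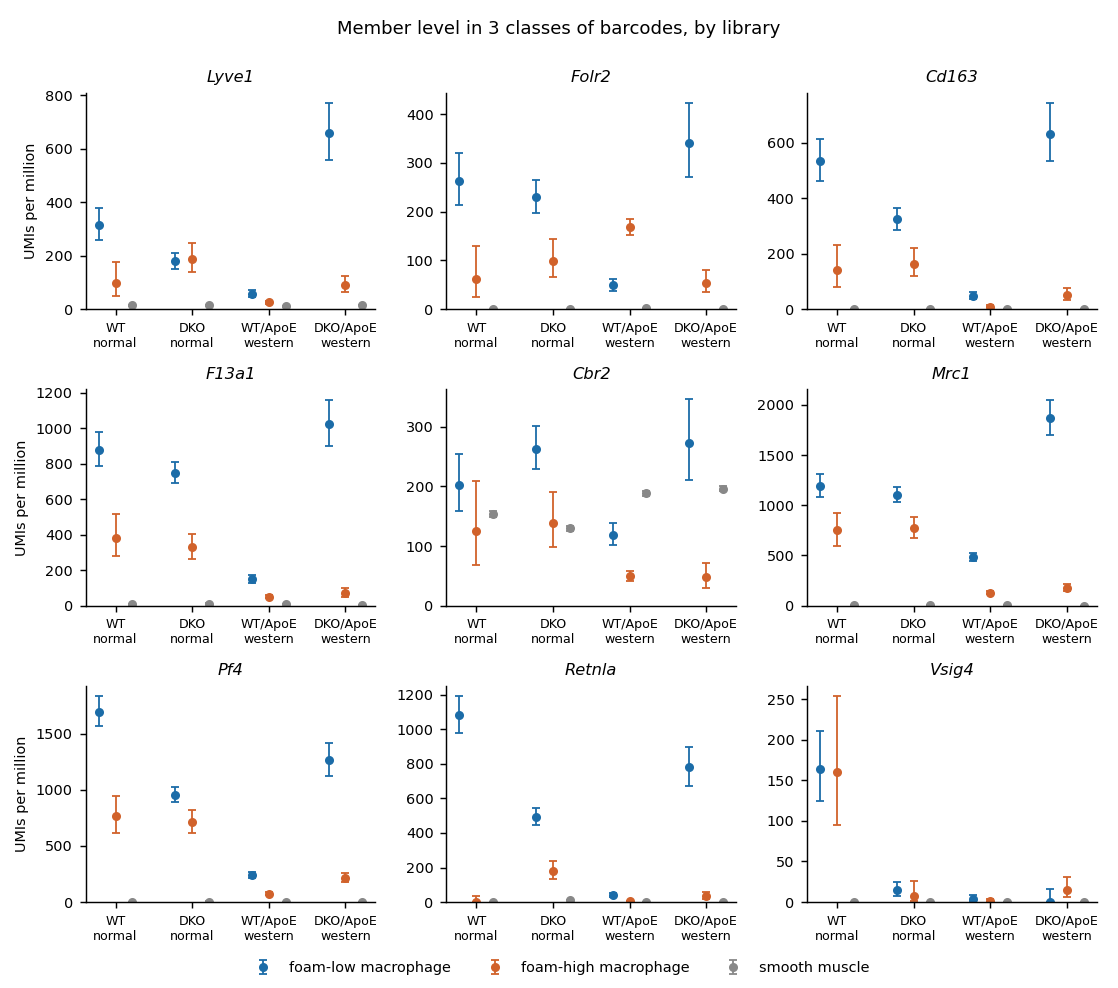
Level in CPM (y axis, linear from 0) of each of the 9 genes in foam-low macrophages, foam-high macrophages and smooth muscle barcodes of the 4 libraries (x axis; DKO stands for LysM-DKO, ApoE for ApoE-/-), with exact 95% Poisson intervals as bars. In foam-low macrophages WT/ApoE-/- on western diet is the lowest library for 8 genes, while Vsig4 is at 0 in LysM-DKO/ApoE-/-, and Cbr2 is the gene whose smooth muscle level lies near its macrophage level.

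Summed over the 9 genes, foam-low macrophages held 6325 (6070 to 6589), 4315 (4175 to 4459), 1191 (1134 to 1250) and 6843 (6515 to 7183) CPM. Foam-high macrophages held 2488, 2587, 510 and 758 CPM. Smooth muscle held 183, 176, 216 and 219 CPM, of which all but 29.7, 46.7, 27.3 and 22.5 CPM was Cbr2. Endothelial barcodes held 212, 197, 193 and 189 CPM and fibroblasts 46.2, 61, 69.9 and 45.5 CPM. Barcodes in no class held 101, 110, 96.9 and 377 CPM, so that LysM-DKO/ApoE-/- lay above the other libraries there, with the 302 Retnla UMIs of 1 barcode among its 370 member UMIs.

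**Figure D2:**
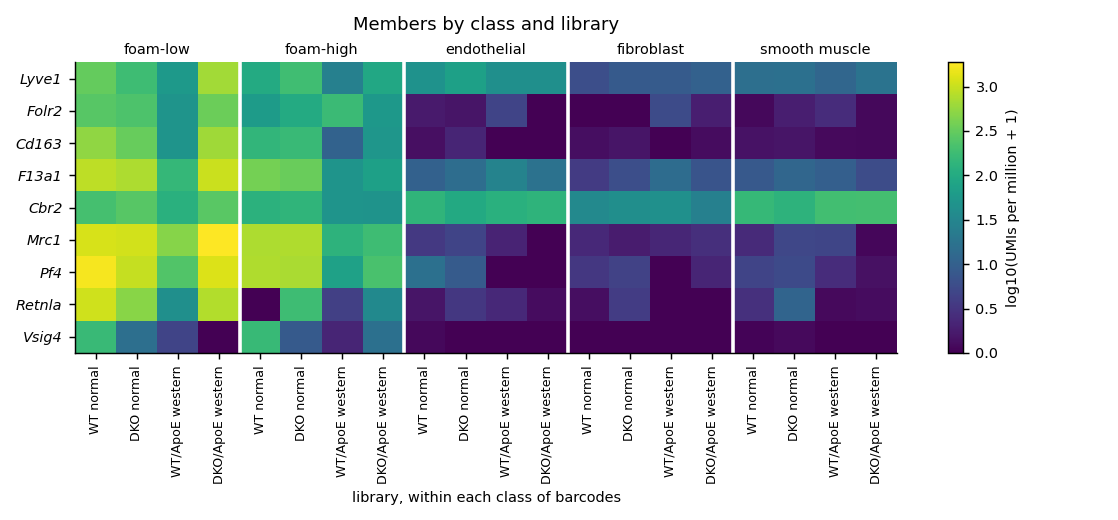
Level of each of the 9 genes (rows) in 5 classes of barcodes and 4 libraries (columns; DKO stands for LysM-DKO, ApoE for ApoE-/-), coloured by log10 of CPM plus 1. Apart from Cbr2, which is seen in every class, and Lyve1 in endothelial barcodes, the bright cells lie in both macrophage classes.

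Lyve1 in the endothelial class, at 45.2, 70.6, 41.3 and 41.4 CPM, sat in few barcodes. The 25, 50, 11 and 16 endothelial barcodes with at least 2 Lyve1 UMIs held 76.7, 85.6, 83.8 and 72.1% of the class total. In these barcodes 5 lymphatic markers summed to 3907, 5619, 1884 and 2581 CPM, against 86, 132, 5.76 and 17.6 CPM in endothelial barcodes without Lyve1. Mmrn1, a matrix protein of lymphatic endothelium, was at 1218, 1241, 511 and 664 CPM there. Foam-low macrophages held 11.3, 11, 8.84 and 12.3% of all Lyve1 UMIs of a library, so most Lyve1 UMIs of a library lay outside this class. In foam-low macrophages the same lymphatic markers summed to 8.21, 7.25, 2.93 and 4.19 CPM, with 3, 1, 3 and 4 of the 5 at 0.

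On western diet the resident genes were higher in LysM-DKO than in WT foam-low macrophages, the comparison the study's design sets up in an atherosclerotic background. A gene is said to pass below when its levels differ at least 2-fold, its interval lies apart from 0 and the pair of sums holds at least 20 UMIs, without which a gene is not read. All 8 readable members were higher and all 8 passed, where 6.64% of 7850 genes passed in that direction and 8.92% in the other. The median of the 8 was 2.78 on the log2 scale (LysM-DKO over WT), against -0.06 over all genes. With foam-low and foam-high macrophages summed, the median was 2.17 against -0.05 over all genes, and 6 of 8 passed. Folr2 was then at 0.26 (-0.06 to 0.56) and Cbr2 at 0.76 (0.39 to 1.11), and neither passed. In WT/ApoE-/- 427 of the 494 Folr2 UMIs of macrophages lay in the foam-high class, so the Folr2 ratio depends on the split.

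Among the receptors the log2 ratios were 3.54 (3.14 to 3.96) for Lyve1, 2.79 (2.31 to 3.28) for Folr2, 3.70 (3.28 to 4.15) for Cd163 and 1.96 (1.78 to 2.13) for Mrc1. F13a1 stood at 2.77 (2.49 to 3.04), Pf4 at 2.39 (2.16 to 2.62), Retnla at 4.21 (3.79 to 4.68) and Cbr2 at 1.21 (0.76 to 1.62). Vsig4, with 5 and 0 UMIs, gave no ratio. Because these are sums, the size of a ratio mixes how many barcodes carry a gene with how much each holds. The thinned shares of barcodes, 44.9 against 2.98% for Lyve1, 21.7 against 5.73% for Folr2, 39.1 against 2.75% for Cd163 and 75.4 against 16.7% for Mrc1, put the libraries in the same order.

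Markers of other cells moved with this comparison. In WT/ApoE-/- foam-low macrophages the smooth muscle markers stood at 15552 against 7916 CPM and the fibroblast markers at 4586 against 403 CPM, and the 8 handling stress genes at 5898 against 10465 CPM. The macrophage markers were at 7679 against 13702 CPM, and 83 of the 436 WT/ApoE-/- barcodes held exactly the 5 C1q UMIs of the cut, against 0 of 69. With barcodes that reach another class left out, all 8 still passed, and the ratios ran from 1.22 for Mrc1 to 4.56 for Retnla, with Lyve1 at 2.90, Folr2 at 2.03 and Cd163 at 2.93. Set against the C1q UMIs of the same barcodes in place of all UMIs, 7 of 8 passed, and Cbr2 fell short at 0.26. With classes called on thinned counts 7 of 8 passed and Mrc1 fell short at 0.89.

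Other genes of the same states were counted alongside. Of 24 other genes of resident macrophages, 20 had enough UMIs, and 15 passed as higher and 0 as lower, with a median of 1.72. Among them were the C-type lectin Cd209f at 3.62, the endothelin receptor Ednrb at 2.68, the leukotriene synthase Ltc4s at 2.52 and the transcription factor Maf at 2.18. Of 13 other genes of alternative activation, 7 could be read, 5 passed as higher and 1 as lower, led by the chemokine Ccl24 at 3.92 and the lectins Mgl2 at 2.13 and Clec10a at 2.07, while the transglutaminase Tgm2 was at -1.72. The 12 genes of lipid-associated macrophages gave 11 readable ones, of which 0 passed as higher and 7 as lower, with osteopontin (Spp1) at -5.63 and the tetraspanin Cd9 at -1.60.

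On normal diet the same comparison pointed the other way for most members, by less. In foam-low macrophages 8 of 9 were lower in LysM-DKO, with a median of -0.72 against 0.04 over all genes, and 2 of 9 passed as lower where 2.15% of 6235 genes did (3.96% passed as higher). They were Retnla at -1.13 (-1.33 to -0.92) and Vsig4 at -3.46 (-4.53 to -2.59). When the barcode with the most UMIs of each member was left out, 1 of 9 passed as lower. Over 17 alternatives Retnla ran from -2.56 to -0.17 and Vsig4 from -4.26 to -2.50. The counting interval of Retnla covers neither such choices of processing nor the clustering of its UMIs in few barcodes given above. Lyve1 was at -0.81, Cd163 at -0.72 and Pf4 at -0.83, each with an interval below 0 but under 2-fold. Mrc1 was at -0.11 (-0.27 to 0.06) and Folr2 at -0.20 (-0.56 to 0.17), whose intervals span 0, and Cbr2 was at 0.37 (-0.01 to 0.78).

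This direction did not hold when barcodes that reach another class were left out. The median was then 0.04, with 5 members higher and 4 lower, and Vsig4 at -3.67 was the 1 that passed. Mrc1 moved to 0.86 and F13a1 to 0.47, while Lyve1 was at -0.51 and Pf4 at -0.58. Hemoglobin markers were at 5137 CPM in LysM-DKO foam-low macrophages against 216 CPM in WT, and the handling stress genes were lower in LysM-DKO for 8 of 8, and their part in the result was not tested. Of the 23 readable other resident genes 2 passed as higher and 4 as lower, with a median of -0.20. Over all 6235 genes 3.96% passed as higher and 2.15% as lower. The chemokine Ccl8 was at 1.90 and Cd209g at -1.61. The 11 readable lipid-associated genes had 3 that passed as higher and 0 as lower. The 3 were the fatty acid binding proteins Fabp5 at 3.77 and Fabp4 at 1.53, and Spp1 at 1.61.

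**Figure D3:**
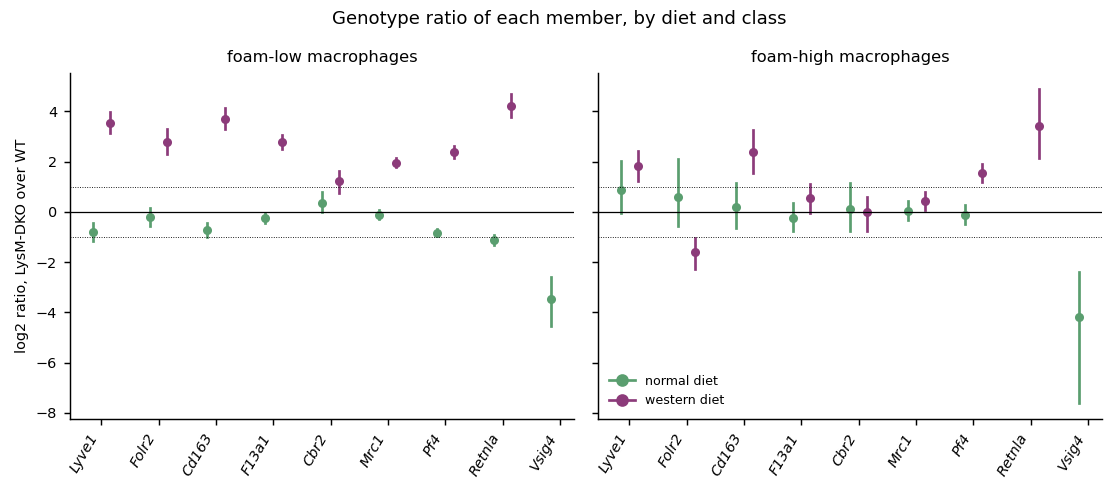
Log2 ratio of LysM-DKO over WT (y axis) for each of the 9 genes (x axis) in foam-low (left) and foam-high (right) macrophages on both diets, with exact 95% counting intervals, a solid line at 0 and dotted lines at 2-fold. The foam-low western diet points lie between 1.21 and 4.21, above all foam-low normal diet points, and sums with under 20 UMIs or with no UMI in 1 library are not drawn (Vsig4 on western diet, Retnla in foam-high macrophages on normal diet).

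In foam-high macrophages the genotypes differed less evenly. On western diet 4 members passed as higher in LysM-DKO, where 2.64% of 9053 genes did. These were Lyve1 at 1.83 (1.23 to 2.41), Cd163 at 2.40 (1.53 to 3.27), Pf4 at 1.54 (1.17 to 1.89) and Retnla at 3.42 (2.15 to 4.89). The Retnla ratio sets 16 UMIs of 1 barcode against 8 UMIs of 1 barcode, so its interval does not describe the class. For Lyve1, too, 1 barcode held much of the sum in each library, as given above. Folr2 passed as lower at -1.61 (-2.28 to -1.05), where 3.46% did. Mrc1 was at 0.45, F13a1 at 0.56 and Cbr2 at -0.02. The median of 1.05 turned to -1.70 when at least 4 UMIs of Gpnmb, Trem2 and Mmp12 were asked for, with 0 of 6 readable members higher. It was 0.20 with 1 member passing as higher at no more than 5% mitochondrial UMIs, and 0.23 with 3 passing when the barcode with the most UMIs of each member was left out. With classes called on thinned counts 2 of 5 readable members were higher and 0 passed as higher. Fibroblast markers were lower in LysM-DKO for 5 of 6, of which 3 passed (median -1.29), and their part in the result was not tested. On normal diet, with 13 and 35 barcodes, the median was 0.13, and 1 member passed in each direction where 7.48% of genes passed as higher and 7.03% as lower. They were Retnla, with 49 against 0 UMIs, and Vsig4, whose 18 WT UMIs came from 1 barcode.

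Most members were lower in foam-high than in foam-low macrophages of the same library, and Folr2 went the other way in WT/ApoE-/-. The split was made on UMIs at full depth. Foam-high barcodes were deeper, with medians of 8462, 6743, 4103 and 5729 UMIs against 4400, 4448, 1926 and 3077. In WT on normal diet 9 of 9 were lower and 6 passed, where 7.22% of genes did and 7.64% passed as higher, with a median log2 ratio of -1.18. Vsig4, counted among the 9, was level at -0.01 (-0.88 to 0.75). Of the 13 foam-high barcodes of this library 7 lay exactly at the cut, and classes called on thinned counts left 0 foam-high barcodes there. Retnla, at 0 of the foam-high UMIs, has the lowest ratio of the 9 whatever is added to its count, so the median does not depend on it. In LysM-DKO on normal diet 3 of 8 passed as lower, where 4.12% did and 3.36% passed as higher, and Lyve1 was level at 0.06 (-0.43 to 0.52). In LysM-DKO/ApoE-/- all 8 readable members passed as lower, where 9.71% did and 8.57% passed as higher, with a median of -3.12. There F13a1 was at -3.83, Cd163 at -3.59 and Mrc1 at -3.39. Smooth muscle markers and handling stress genes had medians below 0 in all 4 libraries too. Smooth muscle markers passed as lower for 5 of 5 in WT on normal diet (median -1.75), 0 of 5 in LysM-DKO on normal diet (-0.71), 5 of 5 in WT/ApoE-/- (-1.35) and 1 of 5 in LysM-DKO/ApoE-/- (-0.83), and fibroblast markers for 6 of 6 in WT/ApoE-/- (-1.56). The handling stress genes passed as lower for 4, 0, 3 and 7 of 8, with medians of -1.11, -0.44, -0.84 and -1.73. Their part in the members' levels was not tested.

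In WT/ApoE-/- on western diet 7 of 8 passed as lower, where 11.8% of genes did, with a median of -1.66. Folr2 alone of the 8 passed as higher, where 5.01% did, at 1.76 (1.40 to 2.17), or 168 against 49.1 CPM. Of the 24 other resident genes 21 could be read, and 3 passed as higher and 7 as lower, with a median of -0.06. The 3 were Igf1, a growth factor, at 1.76, Wfdc17 at 1.75 and Cd5l, a secreted scavenger protein, with 258 against 0 UMIs. Per C1q UMI the Folr2 ratio was 0.64, which did not pass. One barcode held 47 of the 427 foam-high UMIs of Folr2. In LysM-DKO/ApoE-/- Folr2 was at -2.63 (-3.36 to -1.99), with 54 against 340 CPM.

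Folr2 was then followed along the foam genes at equal depth. In WT/ApoE-/- macrophages thinned to 1000 UMIs, those with 0, 1, 2 to 4 and 5 or more UMIs of Gpnmb, Trem2 and Mmp12 (410, 204, 214 and 111 barcodes) held a Folr2 UMI in 4.39, 7.84, 7.94 and 20.7%. Mrc1 went the other way, with 16.3, 11.3, 3.74 and 4.5%, as did F13a1, with 7.56, 6.37, 0.935 and 0.901%. Lyve1 was found in 2.93, 2.94, 0.935 and 0%. Not every other member fell steadily, with Pf4 in 7.8, 10.3, 4.67 and 6.31% and Cbr2 in 9.27, 8.33, 9.35 and 0%. In LysM-DKO/ApoE-/- (78, 28, 16 and 13 barcodes) Folr2 was found in 15.4, 21.4, 0 and 7.69% and Mrc1 in 61.5, 32.1, 12.5 and 0%, where the last 2 bins hold under 20 barcodes each. On normal diet 87 of 92 and 185 of 208 macrophages held 0 such UMIs, so the series could not be followed there.

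The Folr2 UMIs of the WT/ApoE-/- foam-high class lay mostly in barcodes rich in lipid-associated transcripts. The 64 barcodes with at least 2 Folr2 UMIs held 90.2% of them, at a median of 6448 UMIs against 3780 in the 397 barcodes with none. Lipid-associated genes summed to 54973 CPM in the 64 and 25369 CPM in the 397, with Spp1 at 33636 against 9754 CPM, and the 24 other resident genes at 4409 against 3434 CPM. Some other members were higher with Folr2 too, Lyve1 at 110 against 5.4 CPM, F13a1 at 186 against 10.8, Mrc1 at 260 against 87.5 and Pf4 at 207 against 30.3. These are sums, to which few barcodes may give most. At full depth 19 of the 503 foam-high barcodes of this library held at least 3 of the 9 members, and 9 held at least 5. In LysM-DKO on normal diet the 7 foam-high barcodes with Folr2 held less of the lipid-associated genes than the 22 without, 3994 against 7866 CPM.

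**Figure D4:**
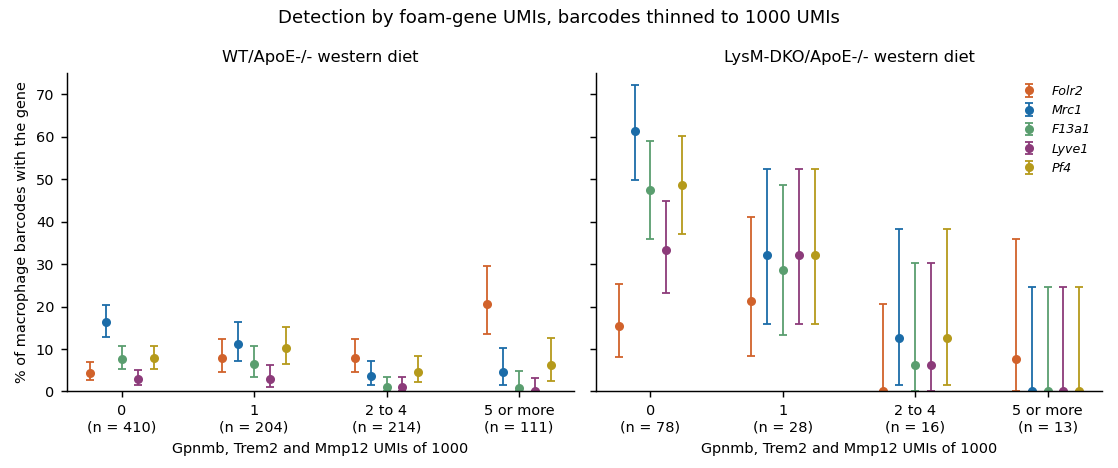
Share of macrophage barcodes with a UMI (y axis, percent) of Folr2, Mrc1, F13a1, Lyve1 and Pf4, by the number of Gpnmb, Trem2 and Mmp12 UMIs (x axis) after thinning to 1000 UMIs, in both western diet libraries, with exact 95% binomial intervals. In WT/ApoE-/- Folr2 goes from 4.39 to 20.7% while Mrc1 goes from 16.3 to 4.5% and Pf4 from 7.8 to 6.31%. In LysM-DKO/ApoE-/- Mrc1 goes from 61.5 to 0%.

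Between diets the libraries differ in ApoE genotype, sex of the cells and version of the counting software as well, so diet cannot be told apart from these. The diet ratios also share their libraries with the genotype ratios above and add no independent values. In WT foam-low macrophages 8 of 9 members passed as lower on western diet, where 7.02% of 8015 genes did and 15.8% passed as higher, with a median of -2.55 against 0.28 over all genes. Retnla was at -4.68, Cd163 at -3.46 and Pf4 at -2.81, and Cbr2 at -0.78 did not pass. Markers of other cells were higher on western diet in the same sums, with 5 of 6 fibroblast markers (median 1.92), 4 of 5 smooth muscle markers (1.36) and 3 of the 4 readable monocyte markers (1.82) passing, while 3 of 8 handling stress genes passed as lower (-0.74), and their part in the result was not tested. In LysM-DKO 8 of 8 readable members were higher on western diet but 1 passed, Lyve1 at 1.87 (1.54 to 2.20), where 5.8% of 6014 genes did and 4.12% passed as lower. Folr2 was there at 0.57 (0.17 to 0.95) and Mrc1 at 0.76 (0.59 to 0.92).

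Co-detection asks whether the members were seen in the same barcodes. At 1000 UMIs, at least 3 of the 9 were found together in 43 of 79, 75 of 173, 33 of 436 and 45 of 69 foam-low barcodes, which is 54.4% (42.8 to 65.7), 43.4% (35.9 to 51.1), 7.57% (5.27 to 10.5) and 65.2% (52.8 to 76.3). None was found in 5.06, 22, 67.9 and 14.5%. At full depth at least 3 were found in 86.1, 69.4, 12.4 and 81.2%. The share without any member in WT/ApoE-/- was 75.7% when Cbr2 was set aside, and in its foam-high class 77.1% held none of the 9.

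Most members were seen more often in barcodes that also held another member. For each ordered pair, the share of foam-low barcodes with gene B was compared between barcodes with and without gene A, where at least 10 barcodes had gene A. The difference was above 0 for 54 of 64, 61 of 64, 48 of 56 and 48 of 56 pairs, and its interval lay above 0 for 6, 56, 38 and 30 of them and below 0 for none. Median differences were 10.3, 24.2, 14 and 28.3 percentage points. These pairs share their barcodes and are not independent of each other.

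Lyve1 and F13a1 were often in the same barcodes. F13a1 was seen in 83.3, 87.9, 69.2 and 77.4% of foam-low barcodes with Lyve1 and in 34.4, 35.7, 6.62 and 44.7% of those without. Mrc1 was seen in 83.3, 75.8, 76.9 and 100% of barcodes with Lyve1 and in 60.7, 51.4, 14.9 and 55.3% without. In WT/ApoE-/-, where 13 barcodes held Lyve1, Pf4 was in 84.6% of them against 7.33% of the rest. Folr2 and Lyve1 were paired in all 4 libraries, Lyve1 being in 41.7, 60, 12 and 66.7% of barcodes with Folr2 and in 19.4, 8.7, 2.43 and 38.9% of the rest, though the interval of the difference spans 0 in the first and last library.

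**Figure D5:**
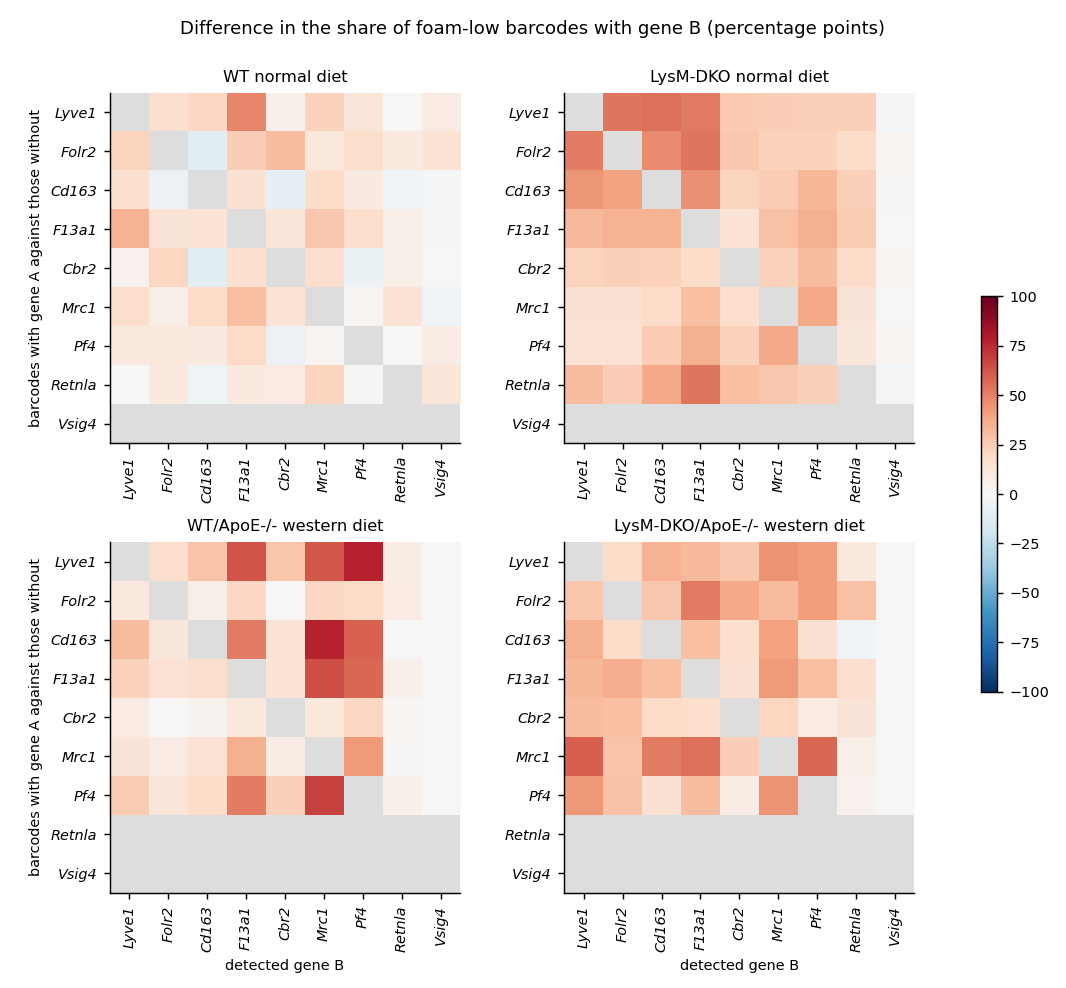
Difference in the share of foam-low barcodes with gene B (columns) between barcodes with and without gene A (rows), in percentage points at 1000 UMIs, for the 4 libraries, red for more often together and blue for less often. Grey cells are the diagonal and rows where under 10 barcodes held gene A, and most cells are red, with medians of 10.3, 24.2, 14 and 28.3 points.

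Macrophages with Retnla held more of the other resident genes and also more of the alternative activation gene Mgl2. In macrophages with at least 2 Retnla UMIs (13, 26, 3 and 8 barcodes) the 24 other resident genes summed to 13580, 15922, 13136 and 17634 CPM, against 7922, 8154, 3463 and 4728 CPM where Retnla was at 0. Lyve1 was at 834, 681, 1046 and 1226 CPM in these barcodes against 160, 132, 31.9 and 225 CPM. Mgl2, a lectin of alternatively activated macrophages, was at 1003, 962, 291 and 663 against 327, 396, 54.5 and 176 CPM. Chil3 and Arg1, classical partners of Retnla in the response to interleukin 4, were at 0 UMIs in all of these barcodes. Apart from these and Mgl2, the 13 other genes of alternative activation are not given here. Monocyte markers stood at 98.9, 173, 232 and 232 CPM against 85.1, 157, 200 and 199 CPM. In foam-low barcodes at 1000 UMIs, Retnla as gene A had intervals above 0 for 0 of 8 partners in WT on normal diet. In LysM-DKO on normal diet it had them for 7 of 8.

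Across 19 class sums of the 4 libraries, genes with a pattern most like the mean of the members by Pearson correlation of log levels were Mgl2 (0.989), the chemokine receptor Ccr1 (0.985), the lectin Clec4a1 (0.982), Fcrls (0.982) and Cd33 (0.978), out of 4128 genes ranked. The sums share libraries and barcode classes, so the coefficients are a description. They include endothelial, fibroblast and smooth muscle sums, where most members were low. A high coefficient therefore also reflects the difference between macrophages and other classes. Of the members themselves, 7 had coefficients of 0.902 to 0.989 with the mean of the other 8, while Vsig4 was at 0.657 and Cbr2 at 0.478.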

How the data were processed

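The values deposited are raw counts of UMIs for each gene in each barcode, made with Cell Ranger 6.0.1 for normal diet and 6.1.2 for western diet per the file headers. The submitters' processing notes name Cell Ranger 6.1.2, Seurat 4.1.0 and mm10. Barcodes were filtered and classed as stated in the report, in the order macrophage, endothelial (Pecam1 and Cdh5, at least 2 UMIs), fibroblast (Pdgfra and Serpinf1, at least 3) and smooth muscle (Myh11 and Cnn1, at least 3). UMIs were summed per library and class and scaled to the class total (CPM). Log2 ratios have 0.5 UMIs added to each sum. Intervals are exact Poisson for levels, exact binomial for shares and, given the pair's total, for ratios, and Newcombe for differences of shares, at 95%, and cover counting error only, since each group is 1 library. A count of 0 allows up to 3 counts of a total.

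Doublets were scored with scrublet (scanpy 1.11.5), and the 1160, 1469, 1934 and 783 barcodes with the highest scores were marked. These numbers were set in advance from the number of barcodes scored and are not a scrublet call. They were kept in the values reported and left out in an alternative. Thinning drew 1000 UMIs per barcode once with a fixed seed. The interval was tested on simulated data for LysM-DKO over WT in western diet foam-low macrophages: over 7809 genes it held the true ratio for 96.6%, and the direction was found for 48.7% of 195 changed genes and 79.7% of the 79 with at least 100 UMIs. Both sums were drawn as independent Poisson counts, for which the interval holds by construction. The simulation therefore checks the calculation only and not UMIs that cluster in few barcodes. The members, lists and classes were chosen with earlier results of these data known. Beyond the members, the text names up to 4 genes of each list per comparison, those with the largest ratio in size among genes at or above 50 UMIs over the pair, and the 6 genes most like the members by Pearson correlation of log2(CPM + 10) over sums of at least 20 barcodes, among genes with at least 100 UMIs in foam-low macrophages, of which 1 is not reported here. Genes shown within split barcodes and label checks were chosen after values were seen. Gene positions are those of GENCODE M21 on GRCm38 and upstream sequences those of RefSeq. The alternatives changed the UMI and mitochondrial limits, the cuts of each class, doublets, depth and weighting. Other software was matplotlib 3.10.9, pandas 2.3.3, anndata 0.12.19, scipy 1.17.1 and numpy 2.4.6, under python 3.11.15.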

Additional observations from a re-analysis of the deposited data

Results flagged for a closer look

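The genotype ratio had opposite signs on the 2 diets for 5 members in foam-low macrophages, with intervals apart from 0 on both sides. The western diet log2 ratio of LysM-DKO over WT exceeded that on normal diet by 4.35 for Lyve1, 4.43 for Cd163, 3.0 for F13a1, 3.22 for Pf4 and 5.34 for Retnla. With barcodes that reach another class left out, the normal diet ratio was 0.04 for Cd163 and 0.47 for F13a1, so the signs were no longer opposite for these 2, and F13a1 was at 0.09 with class calls on thinned counts. Retnla kept its sign, but its UMIs lay in few barcodes and its normal diet ratio ran from -2.56 to -0.17 over 17 alternatives. The same libraries give the diet ratio of WT minus that of LysM-DKO, which was -4.35 for Lyve1, -2.99 for Folr2, -4.43 for Cd163, -3.0 for F13a1, -2.06 for Mrc1, -3.22 for Pf4 and -5.34 for Retnla, so these are largely the same differences read from another side. Folr2 was higher in foam-high than in foam-low macrophages of WT/ApoE-/- and lower in LysM-DKO/ApoE-/-, and the log2 ratios differed by 4.40. With 1 library per group, none of these differences was tested.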

How the results depend on the processing

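The median log2 ratios of the members were recomputed under 17 alternatives each, of which setting levels against C1q UMIs and leaving out the barcode with the most UMIs of each member were chosen after seeing the data. For LysM-DKO over WT in foam-low macrophages on normal diet (-0.72), 14 moved it by less than its counting interval, thinned class calls gave -0.15, equal weight for each barcode -0.45, and leaving out barcodes that reach another class 0.04. On western diet (2.78) C1q cuts of 10 and 3 gave 2.16 and 3.17, thinned calls 1.44, leaving out barcodes that reach another class 2.01 and levels per C1q UMI 1.83. In western diet foam-high macrophages (1.05) foam cuts of 4 and 1 gave -1.70 and 1.77, thinned calls -7.3e-06, at most 5% mitochondrial UMIs 0.20, equal weight 2.06, no UMI minimum 1.54 and leaving out the top barcodes 0.23. For foam-high over foam-low macrophages of WT/ApoE-/- (-1.66) the C1q cuts gave -2.37 and -1.23, a foam cut of 4 -2.03, thinned calls -3.31, leaving out barcodes that reach another class -2.79 and levels per C1q UMI -2.78. In LysM-DKO/ApoE-/- (-3.12) at most 5% mitochondrial UMIs gave -3.83, foam cuts of 4 and 1 -6.30 and -2.02, thinned calls -3.94, equal weight -2.61 and leaving out the top barcodes -3.77. The cause was not tested for any of these. The co-detection medians stayed within 8.97 to 19.5, 18.6 to 36.8, 13.7 to 25.7 and 22.1 to 32.2 points under 5 alternatives per library. No paired analysis was possible because each group is 1 library. The number of barcodes limits Vsig4, Retnla and the normal diet foam-high class of 13 and 35 barcodes.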

Other observations

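In the unassigned barcodes of WT/ApoE-/- on western diet, 17 held at least 2 Mrc1 UMIs. Dendritic cell markers summed to 908 CPM in them against 94.7 CPM in unassigned barcodes without Mrc1, with the lectins Cd209a at 472 against 2.17 CPM and Mgl2 at 1683 against 9.42 CPM. In the endothelial class of the same library 52 of 100 F13a1 UMIs came from 1 barcode. Outside macrophages, barcodes with at least 2 F13a1 UMIs (49, 74, 79 and 53) held macrophage markers at 278, 351, 212 and 202 CPM, against 152, 168, 272 and 145 CPM where F13a1 was at 0.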
